A study of Homo sapiens with 20 samples.

Results

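The comparison described here set T47D cells transfected with a small interfering RNA (siRNA) against CBX3 (si-CBX3) against T47D cells given a control siRNA (si-control), both at 0 h, before any hormone. It took 4 of the 20 samples of the series, the 2 RNA-seq libraries labelled si-CBX3 and the 2 labelled si-control at 0 h, and read them within a fit of the 16 RNA-seq libraries that carry an siRNA. T47D is an established luminal breast cancer line with oestrogen and progesterone receptors, and all libraries come from this 1 line. Per the labels, cells were held for 48 h in phenol red-free medium with charcoal-treated serum and then overnight without serum. The labels of si-CBX3 replicate 1 give no culture, extraction or library protocol. The other groups used below, with 2 libraries each, were cells with an siRNA against FOXA1 (si-FOXA1) or against BRG1, the SMARCA4 product (si-BRG1), at 0 h, and si-CBX3 and si-control cells after 6 h of 10 nM R5020, a synthetic progestin. Whether replicates are separate cultures is not given in the labels. The p-values below therefore cover the spread between libraries, which may be technical and was estimated over all 8 groups of the fit together.

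CBX3 encodes HP1 gamma, a member of the heterochromatin protein 1 family. These proteins bind histone H3 methylated at lysine 9 (H3K9) through a chromodomain and recruit partners through a chromoshadow domain. HP1 gamma is also found in euchromatin and over the bodies of transcribed genes. By its title, the series asks how a hormone represses genes through BRG1 and the linker histone H1.2, and the knockdown at 0 h gives the state from which that response starts.

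Fragments counted per gene totalled 65953550 and 65674670 in the si-CBX3 libraries, against 66980856 and 61825484 in the si-control libraries. Levels are CPM, counts scaled to an equal library size with TMM factors. Differences are log2 fold changes of si-CBX3 over si-control with a standard error (SE), and a gene was called higher or lower at an adjusted p below 0.05 in edgeR's quasi-likelihood test. Of 18806 genes tested, 5283 (28.1%) were higher and 4894 (26.0%) lower in si-CBX3 cells, with a median over all genes of 0.05. With DESeq2's size factors 4863 were higher and 5320 lower, and lower calls were also the more numerous without the filter on low counts (4894 higher and 5210 lower), from the 2 groups alone (4911 and 5070), and without si-control replicate 1 (4276 and 4835) or 2 (4236 and 4540). Changes of at least 2-fold were called upward for 1712 genes (9.1%) and downward for 1201 genes (6.39%). Per the file headers, si-CBX3 libraries were counted in a run with 1 thread, as were those of si-FOXA1, and si-control libraries in a run with 8, as were those of si-BRG1. Anything else that differed between these counting runs cannot be told apart from the siRNA in the comparison with si-control. The same holds for si-CBX3 against si-control at 6 h and for si-CBX3 against si-BRG1 at 0 h.

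The siRNA lowered its target in both libraries. CBX3 (ENSG00000122565.14, hg19 chromosome 7, 26240782 to 26252976, plus strand) had 6.80 and 6.37 CPM in si-CBX3 cells, against 242 and 266 CPM in si-control cells (-5.27, SE 0.11, adjusted p = 7.06e-15), which is 38.6-fold lower. Both other HP1 genes moved, in opposite directions. CBX5, which encodes HP1 alpha, had 406 and 335 CPM in si-CBX3 cells, against 551 and 671 CPM in si-control cells (-0.72, SE 0.10, adjusted p = 1.37e-05). CBX1, which encodes HP1 beta, had 195 and 205 CPM in si-CBX3 cells, against 151 and 141 CPM in si-control cells (0.46, SE 0.08, adjusted p = 0.000194). The groups did not overlap for any of the 3 genes.

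Genes near CBX3 were higher or not called. HNRNPA2B1, the gene of a nuclear RNA-binding protein, overlaps the start of CBX3 on the opposite strand (ENSG00000122566.16, hg19 chromosome 7, 26229547 to 26241149, minus strand), and counting used the strand. It had 1080 and 1080 CPM in si-CBX3 cells, against 703 and 641 CPM in si-control cells (0.68, SE 0.10). The transcription factor gene NFE2L3, 14.0 kb away, was higher (1.65, SE 0.16), and so was SNX10, a sorting nexin gene at 78.6 kb (1.11, SE 0.20). SKAP2, at 453.7 kb, was not called (0.01, SE 0.08). Of 5 tested genes of the HOXA cluster, HOXA3 (3.45, SE 0.56) and HOXA7 (2.42, SE 0.96) were called higher at levels below 1 CPM. The log2 fold change of HOXA3 was 4.57 and 2.83 without si-control replicates 1 and 2, and the call of HOXA7 was lost when any 1 of the 4 libraries was left out and under DESeq2 (adjusted p = 0.0773).

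Genes that write, read or erase methylated H3K9, or bind HP1, moved both ways: 15 of 34 were higher and 10 lower, with a median of 0.13, or 13 higher and 12 lower with DESeq2's size factors. LBR, an inner nuclear membrane protein that binds HP1, had 24.4 and 27.1 CPM in si-CBX3 cells, against 63.4 and 76.9 CPM in si-control cells (-1.45, SE 0.09). LMNB1, the lamin B1 gene (-0.96, SE 0.09), and the H3K9 methyltransferase gene SUV39H1 (-0.66, SE 0.08) were also lower. The paired methyltransferase genes EHMT1 (1.05, SE 0.10) and EHMT2 (0.57, SE 0.08) and the demethylase gene PHF8 (0.61, SE 0.07) were higher. So were the targets of the series' other siRNAs. SMARCA4 had 184 and 175 CPM in si-CBX3 cells, against 76.6 and 65.7 CPM in si-control cells (1.34, SE 0.18), and FOXA1 had 505 and 494 CPM in si-CBX3 cells, against 389 and 408 CPM in si-control cells (0.33, SE 0.08), without overlap between the groups.

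**Figure D1:**
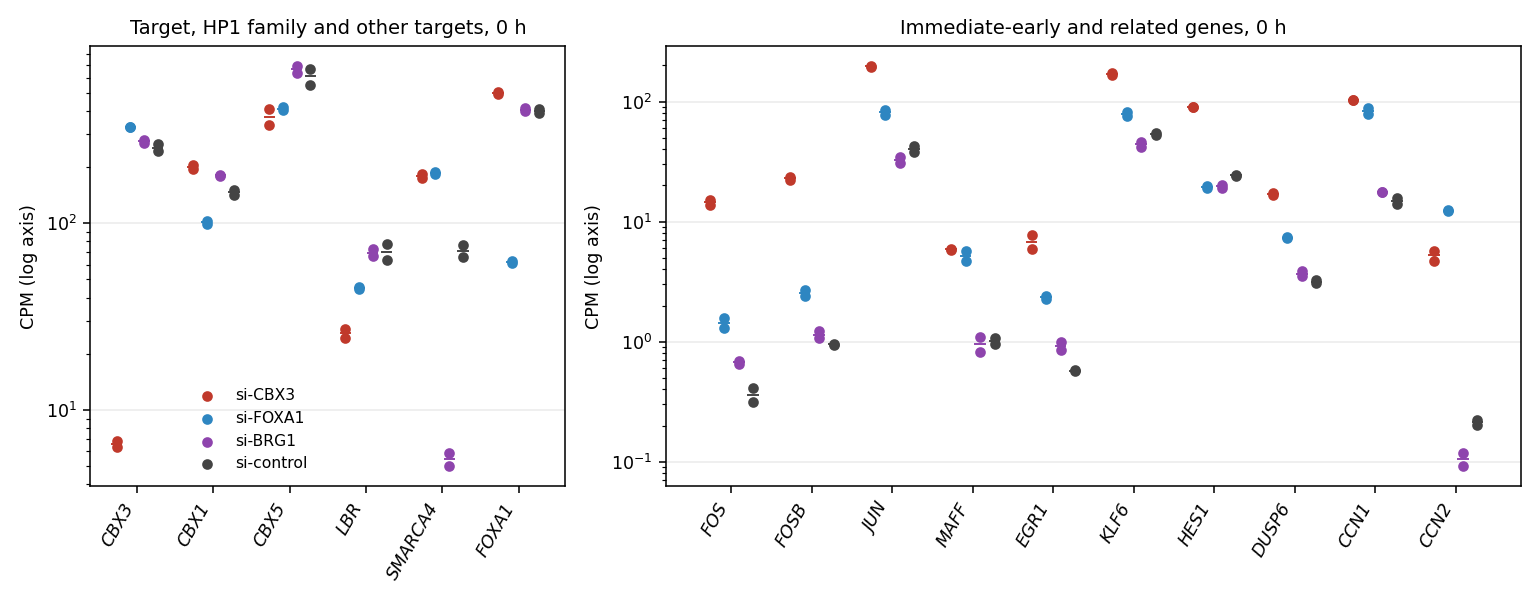
CPM on a log axis in each 0 h library of si-CBX3, si-FOXA1, si-BRG1 and si-control cells, 2 points a group with a short line at the mean, for single genes. CBX3 lies at 6.80 and 6.37 CPM in si-CBX3 cells, below every other library, and FOS at 13.8 and 15.1 CPM, above every other library.

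Immediate-early genes, which growth factor signalling switches on quickly and without new protein synthesis, were higher in si-CBX3 cells. Of 11 genes of the AP-1 family 8 were higher and 1 lower, with a median of 1.22. FOS (ENSG00000170345.5, hg19 chromosome 14, 75745477 to 75748933, plus strand) had 13.8 and 15.1 CPM in si-CBX3 cells, against 0.314 and 0.410 CPM in si-control cells (5.32, SE 0.17, adjusted p = 2.68e-12). FOSB, its close relative, had 23.6 and 22.2 CPM in si-CBX3 cells, against 0.957 and 0.940 CPM in si-control cells (4.59, SE 0.21). JUN, the partner of FOS in the AP-1 dimer, had 196 and 198 CPM in si-CBX3 cells, against 42.6 and 37.8 CPM in si-control cells (2.29, SE 0.10). In all 3 genes the si-CBX3 libraries lay far above the si-control libraries. MAFF (2.53, SE 0.16), JUND (1.29, SE 0.14) and ATF3 (1.00, SE 0.10) were higher as well. JUNB, another AP-1 subunit gene, picked after its value was seen, had 25.7 and 26.4 CPM in si-CBX3 cells, against 57.1 and 58.8 CPM in si-control cells (-1.15, SE 0.13).

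Of 29 other early transcription factor genes, 24 were higher and the rest were not called. Their median was 0.99, and 14 rose at least 2-fold. EGR1 (ENSG00000120738.7, hg19 chromosome 5, 137801179 to 137805004, plus strand) had 7.67 and 5.96 CPM in si-CBX3 cells, against 0.565 and 0.581 CPM in si-control cells (3.57, SE 0.19, adjusted p = 2.63e-10). HES1, a repressor downstream of Notch, had 90.6 and 89.6 CPM in si-CBX3 cells, against 24.6 and 24.2 CPM in si-control cells (1.88, SE 0.08). The orphan receptor gene NR4A1 (1.69, SE 0.12), KLF6 (1.66, SE 0.07), IER2 (1.54, SE 0.08) and MYC (1.47, SE 0.08) were higher too. EGR3 and EGR2 were picked after their values were seen. EGR3 had 56 fragments over the si-CBX3 libraries and 0 over the si-control libraries, at least 16.9-fold higher against a floor of 3 fragments over the group, and the list's median is 0.99 with EGR3 at that bound. EGR2 had 37 fragments over the si-CBX3 libraries and 2 over the si-control libraries, a ratio of 16.7 (95% exact interval, counting error only, 4.31 to 143).

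The promoter of EGR1 is shown because it holds the CArG box, the letters that serum response factor binds in immediate-early genes. The RefSeq window runs from 250 bases before to 50 after the start (GRCh38.p14, chr5:138465229-138465528, plus strand), and capitals mark CArG matches on either strand.
EGR1: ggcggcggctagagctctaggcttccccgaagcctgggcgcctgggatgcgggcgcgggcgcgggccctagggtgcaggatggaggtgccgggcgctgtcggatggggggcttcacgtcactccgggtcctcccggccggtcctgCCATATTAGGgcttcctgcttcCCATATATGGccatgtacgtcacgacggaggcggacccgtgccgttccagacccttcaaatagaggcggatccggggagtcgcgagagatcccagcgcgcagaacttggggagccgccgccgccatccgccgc
Its 2 matches lie 105 to 96 and 83 to 74 bases before the start. Matches were in 2 of the 24 promoters found for the early factors, EGR1 and SRF, and in 0 of 8 found for AP-1 genes, against 1.09% of the 12441 promoters of genes tested. A promoter without a match lacks only these letters in this window.

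Feedback inhibitors of MAP kinase signalling were higher in 12 of 20 cases and lower in 3, with a median of 0.61. Values ran from -2.19 to 2.43, and 6 rises and 1 fall were at least 2-fold. DUSP6, an ERK phosphatase, had 16.6 and 17.4 CPM in si-CBX3 cells, against 3.06 and 3.25 CPM in si-control cells (2.43, SE 0.13). PHLDA1 (1.97, SE 0.08) and the phosphatase genes DUSP1 (1.70, SE 0.08), DUSP10 (1.22, SE 0.11) and DUSP4 (1.12, SE 0.07) were higher as well. Among 12 ligands and receptors of the EGF family, 4 rose and 1 fell. ERBB2 had 654 and 646 CPM in si-CBX3 cells, against 320 and 295 CPM in si-control cells (1.08, SE 0.07), and ERBB4 (1.62, SE 0.09), TGFA (0.61, SE 0.08) and ERBB3 (0.59, SE 0.07) were higher, whereas EGFR was lower (-0.44, SE 0.09).

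Targets of YAP and TEAD, the effectors of the Hippo pathway, split into 6 higher and 6 lower of 18. CCN2, a secreted matricellular protein gene (ENSG00000118523.5, hg19 chromosome 6, 132269316 to 132272513, minus strand), had 5.74 and 4.71 CPM in si-CBX3 cells, against 0.204 and 0.222 CPM in si-control cells (4.61, SE 0.20). Its relative CCN1 had 104 and 103 CPM in si-CBX3 cells, against 15.8 and 14.0 CPM in si-control cells (2.79, SE 0.08). CRIM1 went the other way, with 93.0 and 89.9 CPM in si-CBX3 cells, against 162 and 166 CPM in si-control cells (-0.84, SE 0.07). In the TGF-beta and BMP response 13 of 23 genes rose and 4 fell, among them LTBP2 (2.76, SE 0.14) and LTBP3 (1.36, SE 0.11), of the latent TGF-beta binding protein family, and the ligand gene TGFB2 (-1.60, SE 0.14). Of 15 NF-kB targets 7 rose, such as ICAM1 (1.11, SE 0.13), and 2 fell, such as BIRC3 (-0.81, SE 0.13), where 4 fell under DESeq2 and without si-control replicate 2.

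**Figure D2:**
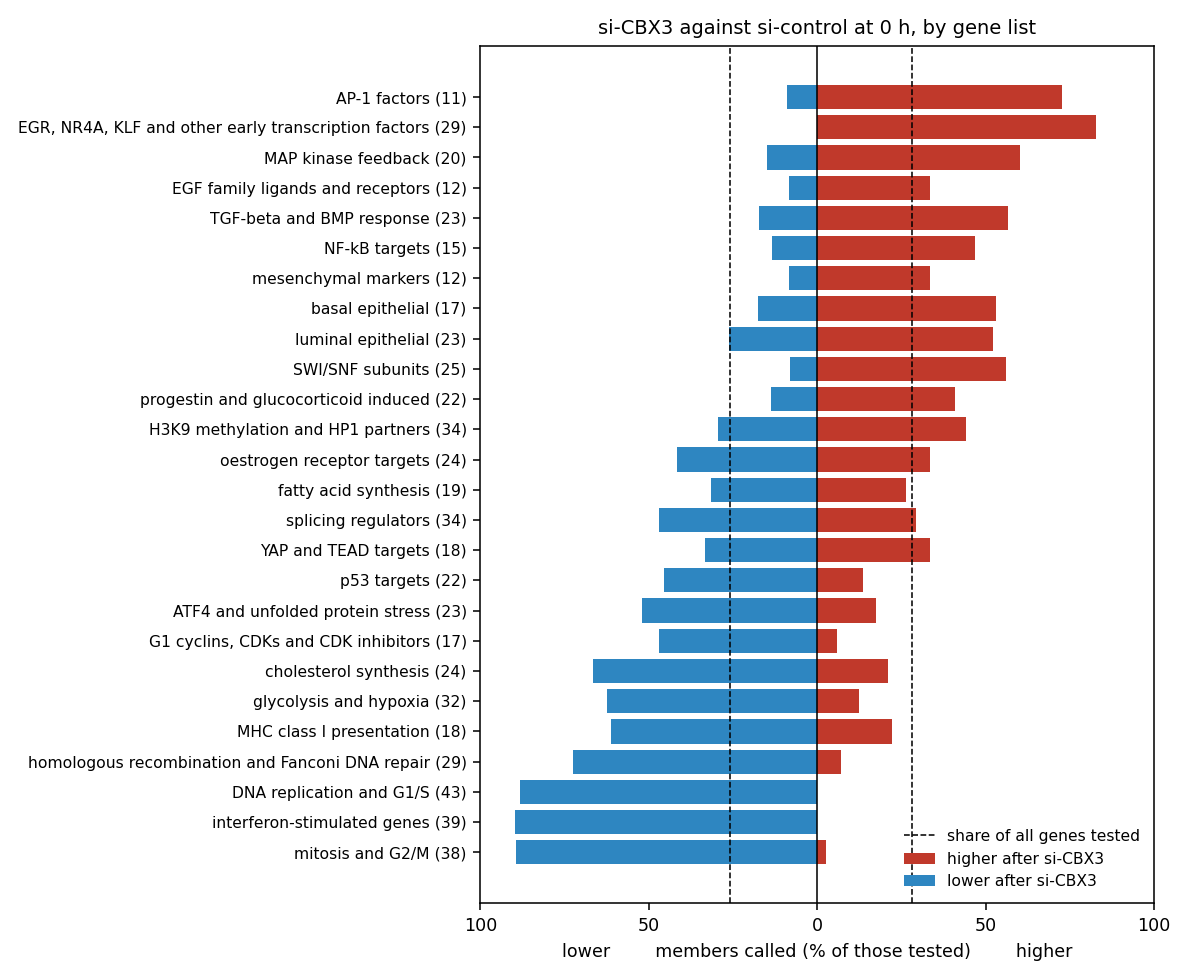
Calls by gene list for si-CBX3 against si-control at 0 h, as shares of the members tested (number in brackets), higher to the right and lower to the left, with dashed lines at the shares over all genes tested (28.1% higher, 26.0% lower). Mitosis, replication and interferon lists stand out for lower calls and the early transcription factors for higher calls.

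Cell division genes were lower in si-CBX3 cells. Of 38 genes of mitosis and the G2/M phase 34 were lower and 1 higher, 30 fell at least 2-fold, and the median was -1.57. CDC20, an activator of the anaphase-promoting complex (ENSG00000117399.9, hg19 chromosome 1, 43824626 to 43828874, plus strand), had 8.39 and 9.57 CPM in si-CBX3 cells, against 42.5 and 43.9 CPM in si-control cells (-2.27, SE 0.09, adjusted p = 4.65e-11). CCNB1, the gene of cyclin B1, had 33.8 and 36.6 CPM in si-CBX3 cells, against 119 and 121 CPM in si-control cells (-1.77, SE 0.08). The securin gene PTTG1 (-2.23, SE 0.10), the kinesin genes KIF2C (-2.12, SE 0.10) and KIF20A (-2.10, SE 0.09), and PRC1, whose product bundles the central spindle (-1.57, SE 0.07), were lower too. The list summed to 950 and 1060 CPM in si-CBX3 cells, against 2190 and 2310 CPM in si-control cells. In bulk RNA, fewer dividing cells and less of these RNAs per cell cannot be told apart.

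The promoters of CDC20 and PRC1 are printed because both hold the cell cycle homology region (CHR, letters TTTGAA) and the CCAAT box typical of late cell cycle genes. Capitals mark these letters on either strand (GRCh38.p14, chr1:43358731-43359030, plus strand, for CDC20, and chr15:90994486-90994785, minus strand, for PRC1).
CDC20: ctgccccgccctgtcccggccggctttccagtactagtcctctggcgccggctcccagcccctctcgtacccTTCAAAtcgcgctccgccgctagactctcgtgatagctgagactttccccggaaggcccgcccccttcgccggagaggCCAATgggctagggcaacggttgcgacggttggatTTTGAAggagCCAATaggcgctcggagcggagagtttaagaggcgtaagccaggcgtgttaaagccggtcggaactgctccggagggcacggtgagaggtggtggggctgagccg
PRC1: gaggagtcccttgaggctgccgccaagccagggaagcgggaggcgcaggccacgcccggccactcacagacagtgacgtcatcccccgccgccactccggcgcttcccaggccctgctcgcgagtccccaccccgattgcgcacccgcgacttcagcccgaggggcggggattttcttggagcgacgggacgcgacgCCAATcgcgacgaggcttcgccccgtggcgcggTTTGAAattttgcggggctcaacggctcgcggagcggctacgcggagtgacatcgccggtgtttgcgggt
A TTTGAA lies 65 to 60 bases before the start in CDC20 and 20 to 15 bases before it in PRC1. The CHR letters were in 21 of the 31 promoters found for the mitotic list, against 10.1% of promoters of genes tested, and CCAAT was in 23 of 31, against 36.3%. Both were in 17 of 31, against 4.25%. For the replication list the CHR letters were in 1 of 36 promoters and CCAAT in 20. A match describes letters and not a bound site.

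Of 43 genes of DNA replication and the G1/S step 38 were lower, 17 of them at least 2-fold, the rest were not called, and the median was -0.80. Thymidine kinase (TK1) had 22.1 and 24.6 CPM in si-CBX3 cells, against 94.8 and 110 CPM in si-control cells (-2.13, SE 0.11). RRM2, the regulated subunit of ribonucleotide reductase, had 18.0 and 20.5 CPM in si-CBX3 cells, against 60.6 and 67.7 CPM in si-control cells (-1.74, SE 0.11). The cyclin E2 gene CCNE2 (-1.65, SE 0.11), the licensing factor gene CDC6 (-1.37, SE 0.09) and the helicase subunit genes MCM2 (-1.24, SE 0.07) and MCM7 (-1.15, SE 0.07) fell as well. Homologous recombination and Fanconi repair genes gave 21 lower and 2 higher of 29, with EXO1, an exonuclease gene, the lowest in p (-1.64, SE 0.12), and 1 was higher without si-control replicate 1 or without si-control replicate 2.

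Among 17 G1 cyclins, CDKs and CDK inhibitors 8 fell and 1 rose, or 2 rose without si-control replicate 2. Cyclin D1 (CCND1) had 48.2 and 49.1 CPM in si-CBX3 cells, against 100 and 98.9 CPM in si-control cells (-1.03, SE 0.08), and CDK4 fell by less than 2-fold (-0.84, SE 0.09). The CDK inhibitor gene CDKN1A was also lower, with 183 and 188 CPM in si-CBX3 cells, against 337 and 354 CPM in si-control cells (-0.90, SE 0.08). Of 22 p53 targets 10 fell, such as AEN, an exonuclease gene (-1.41, SE 0.08), and MDM2, the p53 ubiquitin ligase gene (-0.67, SE 0.07), and 3 rose, such as the repair gene XPC (1.23, SE 0.08).

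Interferon-stimulated genes, the antiviral programme that interferons switch on, were lower in 35 of 39 cases, with a median of -1.51. IFI27 (ENSG00000165949.8, hg19 chromosome 14, 94571182 to 94583033, plus strand) had 6.56 and 12.4 CPM in si-CBX3 cells, against 132 and 52.5 CPM in si-control cells (-3.29, SE 0.37, adjusted p = 1.17e-06), and -2.52 without si-control replicate 1. OAS1, a sensor of double-stranded RNA, had 37.7 and 57.9 CPM in si-CBX3 cells, against 328 and 153 CPM in si-control cells (-2.33, SE 0.28), and -1.72 without that library. GBP1, an interferon-induced GTPase gene, had 2.17 and 3.03 CPM in si-CBX3 cells, against 20.8 and 13.7 CPM in si-control cells (-2.73, SE 0.20). RSAD2 (-2.53, SE 0.21), IFITM3 (-2.38, SE 0.26) and OASL (-2.27, SE 0.22) were lower as well.

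The si-control libraries differed between themselves for these genes. The median CPM over the list was 17.7 and 25.0 in si-CBX3 libraries, against 90.8 and 45.7 in si-control libraries. Without si-control replicate 1, 33 members were lower and 1 higher. At 0 h the median was 9.89 and 7.58 in si-FOXA1 and 20.6 and 18.4 in si-BRG1 libraries, so each siRNA against a gene gave a lower level than si-control. What the control siRNA contributes to the difference was not tested.

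The promoters of IFI27 and GBP1 are given with the interferon-stimulated response element in capitals (letters GAAANNGAAA on either strand; GRCh38.p14, chr14:94110486-94110785, plus strand, and chr1:89065159-89065458, minus strand).
IFI27: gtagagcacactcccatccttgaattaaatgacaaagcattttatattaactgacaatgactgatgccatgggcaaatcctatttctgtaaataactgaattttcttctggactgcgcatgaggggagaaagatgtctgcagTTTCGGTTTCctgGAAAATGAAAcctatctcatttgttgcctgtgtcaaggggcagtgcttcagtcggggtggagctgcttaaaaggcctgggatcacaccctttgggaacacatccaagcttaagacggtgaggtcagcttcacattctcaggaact
GBP1: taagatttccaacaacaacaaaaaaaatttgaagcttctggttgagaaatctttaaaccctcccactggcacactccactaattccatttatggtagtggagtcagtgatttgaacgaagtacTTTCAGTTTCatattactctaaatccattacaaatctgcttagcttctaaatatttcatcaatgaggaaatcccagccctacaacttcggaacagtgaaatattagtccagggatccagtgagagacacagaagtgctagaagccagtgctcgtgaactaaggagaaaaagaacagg
IFI27 has matches 108 to 99 and 95 to 86 bases before the start, and GBP1 has 1 match 127 to 118 bases before it. The letters were in 20 of the 30 promoters found for the interferon list, against 2.65% of promoters of genes tested.

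MHC class I presentation, which interferon also raises, had 11 of 18 genes lower and 4 higher, or 2 higher without si-control replicate 2. B2M, the class I light chain, had 478 and 511 CPM in si-CBX3 cells, against 896 and 783 CPM in si-control cells (-0.76, SE 0.08). The peptidase gene ERAP2 (-1.12, SE 0.13) and the transporter gene TAP2 (-0.71, SE 0.08) fell, and the chaperone gene TAPBP rose, with 290 and 297 CPM in si-CBX3 cells, against 103 and 85.1 CPM in si-control cells (1.64, SE 0.11).

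**Figure D3:**
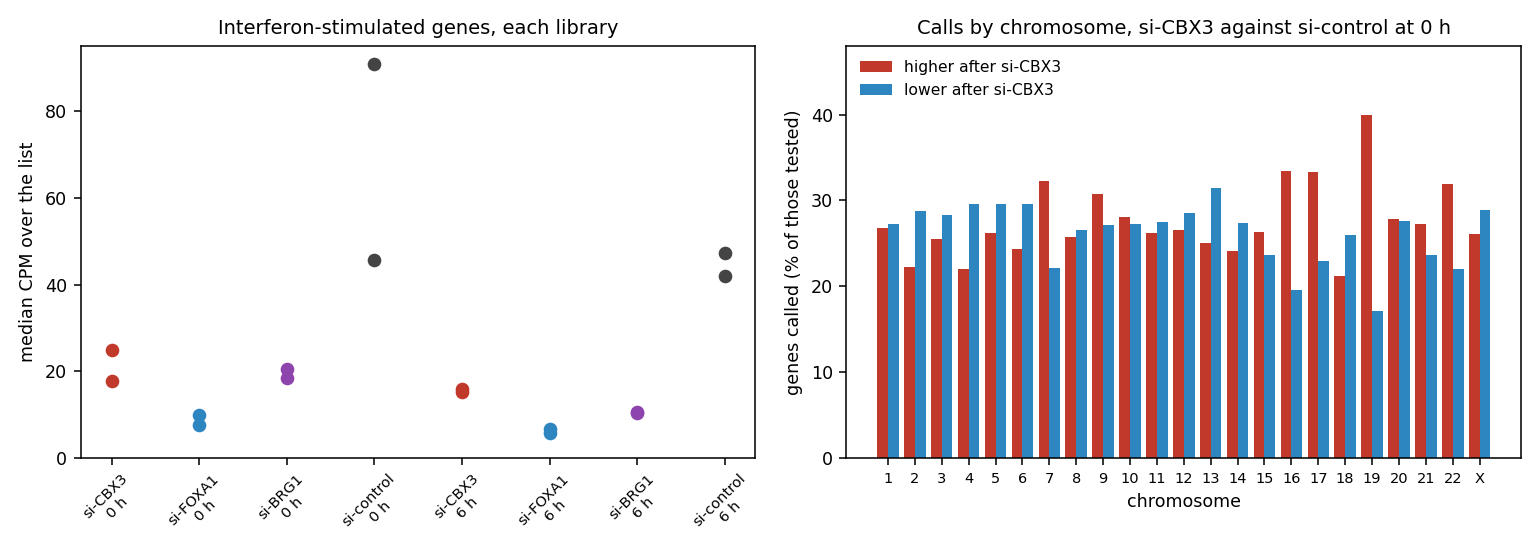
Median CPM over the 39 interferon-stimulated genes in each library by siRNA and time, and shares of genes tested on each chromosome called higher or lower in si-CBX3 than in si-control cells at 0 h. The si-CBX3 libraries at 0 h lie at 17.7 and 25.0 CPM, against 90.8 and 45.7 CPM for si-control, and chromosome 19 has 40.0% of its genes called higher.

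In glycolysis and the hypoxia response 20 of 32 genes fell and 4 rose (median -0.41), and 2 rose without si-control replicate 1 or without si-CBX3 replicate 1. LDHA, lactate dehydrogenase A, had 452 and 444 CPM in si-CBX3 cells, against 1040 and 1070 CPM in si-control cells (-1.23, SE 0.07). PGK1 (-0.89, SE 0.08) and the phosphofructokinase gene PFKP (-0.90, SE 0.07) fell, and PFKL, another phosphofructokinase gene, rose (0.93, SE 0.08). Cholesterol synthesis showed 16 falls and 5 rises in 24 genes, with HSD17B7 at -0.99 (SE 0.09). Of 23 ATF4 and unfolded protein stress genes 12 fell, among them the asparagine synthetase gene ASNS (-0.64, SE 0.09), and 4 rose. Fatty acid synthesis split into 5 higher and 6 lower of 19, with FASN, fatty acid synthase, at 0.77 (SE 0.12) and LPIN1 at -1.16 (SE 0.08).

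Some families were chosen after values were seen, and over all genes tested 28.1% were higher and 26.0% lower. Cytoplasmic ribosomal protein genes were lower in 73 of 82 cases and higher in 2, with a median of -0.66, and summed to 34800 and 31700 CPM in si-CBX3 cells, against 51400 and 54500 CPM in si-control cells. Of these 82, 16 were higher and 4 lower than in si-FOXA1 cells, and 4 higher and 28 lower than in si-BRG1 cells. Nuclear subunits of the respiratory chain fell in 50 of 81 cases and rose in 8. Nuclear pseudogenes of mitochondrial genes fell in 31 of 35 cases, and summed to 18100 and 20300 CPM in si-CBX3 cells, against 47200 and 45600 CPM in si-control cells. Their counts are uncertain, because near-identical copies exist, and genes of the mitochondrial chromosome had 0 fragments in all 16 libraries. Keratin genes fell in 13 of 29 cases and rose in 2. Small nuclear, nucleolar and Cajal body RNAs fell in 13 of 48 cases and rose in 1. The share that fell was close to that over all genes, but all 13 falls were at least 2-fold, against 6.39% of all genes. Levels were low, with sums of 6.41 and 6.4 CPM in si-CBX3 cells, against 8.75 and 9.72 CPM in si-control cells. Replication-dependent core histones split 5 and 5 of 18, also close to the shares over all genes.

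Of 25 SWI/SNF subunit genes 14 rose and 2 fell, or 1 fell without si-CBX3 replicate 2, with a median of 0.23. Over the alternatives the rises ran from 10 to 14. Besides SMARCA4, the alternative ATPase gene SMARCA2 (1.03, SE 0.10), SMARCC2 (1.04, SE 0.12) and BICRA (1.96, SE 0.20) rose, and ACTL6A fell (-0.71, SE 0.07). Against si-FOXA1 at 0 h, 4 of the 25 were higher and 15 lower (median -0.26), and against si-BRG1 11 were higher and 4 lower. Among 6 linker histone genes H1-2, which encodes H1.2, had 47.6 and 46.2 CPM in si-CBX3 cells, against 88.6 and 82.0 CPM in si-control cells (-0.86, SE 0.11). H1-4 was called higher at a low level (1.25, SE 0.25). The kit named in the labels selects polyadenylated RNA, which most replication-dependent histone messages lack. Splicing regulators fell in 16 of 34 cases and rose in 10, such as SRSF7 (-0.73, SE 0.07) and SRSF4 (0.70, SE 0.08), both of the SR protein family.

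Luminal markers were present in both groups. The 23 markers summed to 22500 and 20900 CPM in si-CBX3 cells, against 19900 and 20800 CPM in si-control cells, and 12 were higher and 6 lower. The oestrogen receptor gene ESR1 was not called, with 211 and 209 CPM in si-CBX3 cells, against 211 and 221 CPM in si-control cells (-0.04, SE 0.06). PGR, the progesterone receptor gene, was higher, with 873 and 700 CPM in si-CBX3 cells, against 473 and 571 CPM in si-control cells (0.59, SE 0.14). TFAP2B, an AP-2 transcription factor gene (ENSG00000008196.8, hg19 chromosome 6, 50786436 to 50815326, plus strand), had 11.1 and 11.6 CPM in si-CBX3 cells, against 0.627 and 0.461 CPM in si-control cells (4.37, SE 0.17). At 0 h it had 14.5 and 14.1 CPM in si-FOXA1 and 1.45 and 1.67 CPM in si-BRG1 cells. TFAP2A (1.58, SE 0.14) and SPDEF (1.04, SE 0.09) rose, and the disulfide isomerase family genes AGR2 (-0.99, SE 0.07) and AGR3 (-1.97, SE 0.10) fell. TFF1, an oestrogen-induced trefoil gene, had 3 fragments over the si-CBX3 libraries and 164 over the si-control libraries, a ratio of si-control over si-CBX3 of 60.5 (95% exact interval, counting error only, 20.3 to 296). It was at 0.0144 and 0 CPM in si-FOXA1 and 0.567 and 0.243 CPM in si-BRG1 libraries at 0 h, and was not called between si-CBX3 and si-FOXA1. Of 24 oestrogen receptor targets 8 rose and 10 fell, the falls including KCNK5 (-2.87, SE 0.14), PDZK1 (-2.18, SE 0.18) and STC2 (-1.74, SE 0.10).

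Before any hormone, 9 of 22 genes known to be induced by progestin or glucocorticoid were higher and 3 lower. FKBP5, a co-chaperone of steroid receptors, had 171 and 176 CPM in si-CBX3 cells, against 79.3 and 74.8 CPM in si-control cells (1.17, SE 0.07), and IRS2, an insulin receptor substrate gene, was at 1.53 (SE 0.21). Of 17 basal markers 9 rose and 3 fell, with ACTA2 at 2.01 (SE 0.11) and ITGA6 at 0.94 (SE 0.08) among the rises and EGFR and the keratin genes KRT15 at -0.65 (SE 0.18) and KRT17 at -1.98 (SE 0.79), both keratins picked after their values were seen, as the falls. The keratin gene KRT5 and COL17A1, which define basal cells, were at 0 in both si-CBX3 libraries and at 0.0314 CPM or less in si-control libraries, and were not called. The list summed to 480 and 461 CPM in si-CBX3 cells, against 383 and 361 CPM in si-control cells. Mesenchymal markers rose in 4 of 12 cases and fell in 1, with sums in si-CBX3 cells of 118 and 116 CPM, against 127 and 109 CPM in si-control cells, and 1 rose without si-control replicate 1 or without si-CBX3 replicate 1, and 2 without si-CBX3 replicate 2. None of them fell without si-CBX3 replicate 1, and 2 fell without si-control replicate 2. Leukocyte markers summed to 2.36 and 2.31 CPM in si-CBX3 cells, against 1.54 and 1.52 CPM in si-control cells, and 2 of 6 rose, a count that ran from 0 to 2 over the alternatives. NKG7 and TYROBP, which mark lymphoid and myeloid cells, were at 0 in all 4 libraries, as were SNAI2 among the mesenchymal and TIE1 and CLDN5 among the endothelial markers. Of 4 endothelial markers ENG rose (1.37, SE 0.10) and EGFL7 fell (-0.46, SE 0.11). The part of other cell types in these results was not tested.

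Of genes whose mean log-CPM reached 3, the 15 largest rises by the naming rule included ANKRD35 (3.65, SE 0.17), the lipid transfer gene OSBPL5, PADI2 and the ribosome-binding protein gene RRBP1 (2.82, SE 0.33). OSBPL5 had 63.8 and 64.4 CPM in si-CBX3 cells, against 7.97 and 7.54 CPM in si-control cells (3.05, SE 0.09). PADI2, an arginine deiminase gene whose product can act on histones, had 126 and 121 CPM in si-CBX3 cells, against 16.2 and 15.4 CPM in si-control cells (2.97, SE 0.08), and PADI3, the other member tested, fell (-0.53, SE 0.10). The forkhead factor genes FOXP4 (2.70, SE 0.19) and FOXJ1, a regulator of motile cilia (2.47, SE 0.13), the vitamin C transporter gene SLC23A1 (2.60, SE 0.15), the envoplakin gene EVPL (2.43, SE 0.19) and MTSS2 (2.41, SE 0.15) were further members. BCAN, the gene of a brain proteoglycan, had 86 fragments over the si-CBX3 libraries and 5 over the si-control libraries, a ratio of 15.5 (95% exact interval, counting error only, 6.41 to 49.1), and its fitted 3.89 was 2.82 and 8.28 without si-control replicates 1 and 2.

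After CBX3, the largest falls under the same limit on mean log-CPM included ENSG00000265150 (-5.04, SE 0.31) and ENSG00000258486 (-4.13, SE 0.35) on chromosome 14, the ectonucleotidase gene ENTPD3, the mucosal chemokine gene CCL28, TRANK1 (-2.70, SE 0.19) and the cytidine deaminase gene APOBEC3B (-2.42, SE 0.13). ENTPD3 had 8.12 and 7.71 CPM in si-CBX3 cells, against 74.2 and 71.2 CPM in si-control cells (-3.20, SE 0.12), and CCL28 had 12 and 13.4 CPM in si-CBX3 cells, against 81.2 and 86.9 CPM in si-control cells (-2.73, SE 0.09). ENSG00000265150 had 0.890 and 0.972 CPM in si-CBX3 cells, against 24.8 and 36.6 CPM in si-control cells. At 0 h it had 0.808 and 1.10 CPM in si-FOXA1 and 20.8 and 26.7 CPM in si-BRG1 libraries. Against si-FOXA1, also counted with 1 thread, ENSG00000265150 (-0.03) and ENSG00000258486 (1.02) were not called. Against si-BRG1, counted with 8 threads like si-control, both were lower (-4.67 and -3.9). These levels thus split by counting run, and what the runs contribute to both falls was not tested. The mitochondrial pseudogene MTND3P25 was at -3.23 (SE 0.30), and at -4.03 without si-CBX3 replicate 1.

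Calls were uneven along the genome. On chromosome 19, 40.0% of 1301 genes were higher and 17.1% lower (median 0.30), as 520 and 222 genes, or 487 and 246 with DESeq2's size factors. Chromosome 16 had 33.4% higher and 19.6% lower, and chromosome 4 had 22.0% higher and 29.6% lower. Zinc finger genes of chromosome 19, whose clusters are known to carry HP1 and methylated H3K9, rose in 92 of 263 cases and fell in 58 (median 0.12). That is a smaller share higher and a larger share lower than on chromosome 19 as a whole. Against si-FOXA1 at 0 h, 40 of the 263 were higher and 123 lower, and against si-BRG1 33 were higher and 90 lower. Zinc finger genes of other chromosomes rose against si-control in 113 of 270 cases and fell in 52 (median 0.21). Against si-FOXA1, 41 of these were higher and 144 lower, and against si-BRG1 58 and 65. Values of single genes that follow are again against si-control. ZNF702P was at 2.02 (SE 0.09) and ZNF812P at -1.79 (SE 0.09), and ZNF664 had 446 and 468 CPM in si-CBX3 cells, against 114 and 103 CPM in si-control cells (2.07, SE 0.09). Clustered protocadherins rose in 20 of 53 cases and fell in 6, with PCDHGA6 at 1.16 (SE 0.10) and PCDHA11 at -1.10 (SE 0.07). Of 26 cancer-testis and germline genes, 3 could be tested and 8 had no count in these libraries; MAGEA1, the most abundant of those tested, was not called (-0.21, SE 0.12). Of protein-coding genes with the shortest exonic length (202 to 2777 bases) 23.3% were higher and 34.3% lower, and of those with the longest (7749 to 45649 bases) 36.6% were higher and 26.5% lower. Median log2 fold changes of the shortest and longest were -0.07 and 0.08 against si-control at 0 h, and -0.11 and 0.10 at 6 h. Against si-FOXA1 at 0 h the order was reversed (0.19 and -0.13), and against si-BRG1 they were nearly equal (0.01 and 0.02). Long noncoding RNAs were higher in 28.2% and lower in 8.9% of cases, and pseudogenes higher in 6.5% and lower in 40.7%.

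The 6 h libraries share no sample with the 0 h comparison, but si-CBX3 was again counted with 1 thread and si-control with 8. After 6 h of R5020, 4652 genes (24.7%) were higher and 4592 (24.4%) lower in si-CBX3 than in si-control cells. Of the 5283 genes higher at 0 h, 3497 (66.2%) were higher again, 75.2% of those higher at 6 h, and 87 were lower. Of the 4894 genes lower at 0 h, 3504 (71.6%) were lower again, 76.3% of those lower at 6 h, and 109 were higher. At 6 h 37 of 38 mitotic genes, 41 of 43 replication genes and 31 of 39 interferon-stimulated genes were lower. PADI2 had 122 and 114 CPM in si-CBX3 cells at 6 h, against 15 and 14.4 CPM in si-control cells, and TFAP2B had 5.90 and 5.78 CPM in si-CBX3 cells at 6 h, against 0.434 and 0.284 CPM in si-control cells, again without overlap.

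The difference between the effects of the knockdown at 6 h and at 0 h was tested as an interaction, and over all genes the effect was higher at 6 h for 4.63% and lower for 4.36%. It was lower for 17 of 29 early factors, 6 of 11 AP-1 genes, 10 of 20 MAP kinase feedback genes, 9 of 22 hormone-induced genes and 10 of 32 glycolysis and hypoxia genes. In the mitotic list it was higher at 6 h for 5 and lower for 2 of 38. At 6 h itself, 5 of the 20 MAP kinase feedback genes were higher and 8 lower in si-CBX3 than in si-control cells, against 24.7% and 24.4% of all genes. FOS had 1.67 and 1.43 CPM in si-CBX3 cells at 6 h, against 1.13 and 0.948 CPM in si-control cells (difference of effects -4.75, adjusted p = 2.49e-08). EGR1 had 0.523 and 0.405 CPM in si-CBX3 cells at 6 h, against 0.378 and 0.265 CPM in si-control cells, with a difference of effects of -3.05. HES1 had 25.4 and 22.8 CPM in si-CBX3 cells at 6 h, against 24.9 and 21.3 CPM in si-control cells, with a difference of -1.82. CCN2 had 0.146 and 0.116 CPM in si-CBX3 cells at 6 h, against 0.113 and 0.190 CPM in si-control cells, where the groups overlapped. DUSP1, higher at 0 h, was lower at 6 h, with 76.6 and 76.0 CPM in si-CBX3 cells at 6 h, against 99.1 and 111 CPM in si-control cells. FKBP5 had 1020 and 1060 CPM in si-CBX3 cells at 6 h, against 1140 and 1030 CPM in si-control cells, also with overlap.

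**Figure D4:**
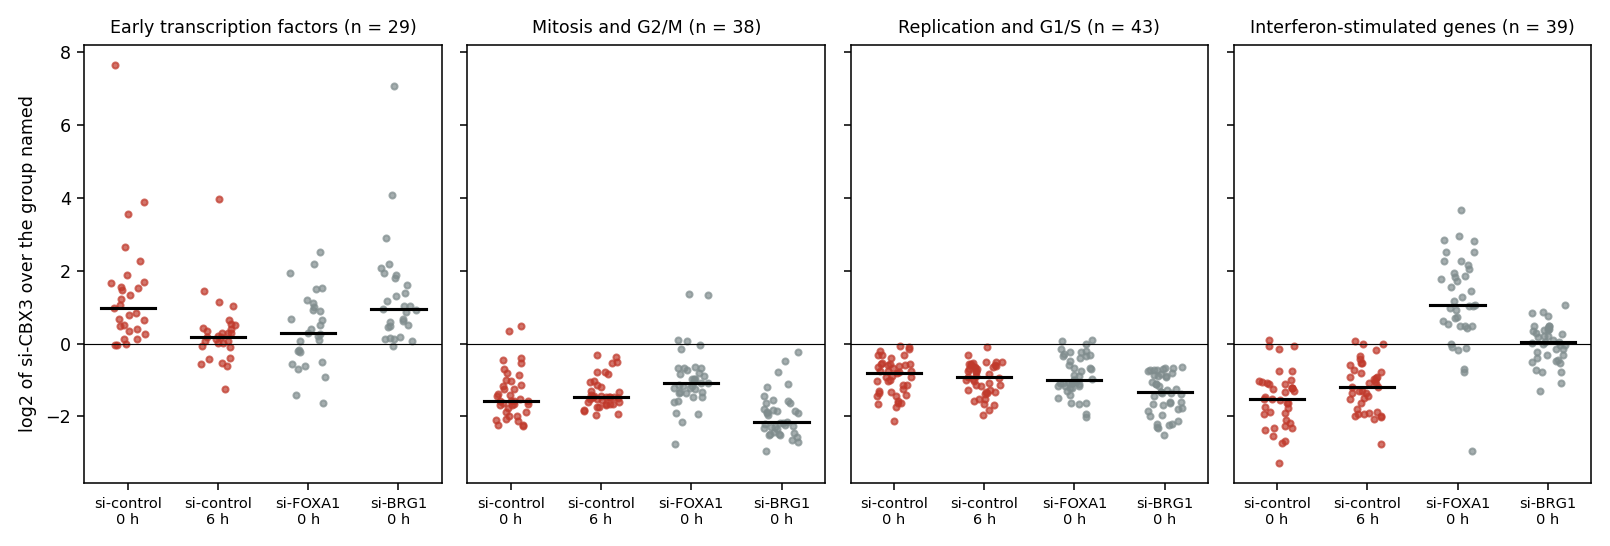
Log2 fold changes of si-CBX3 over si-control at 0 h and at 6 h, and over si-FOXA1 and si-BRG1 at 0 h, for the members of gene lists, 1 point a gene and a bar at the median. The median of the early factors is 0.99 at 0 h and 0.19 at 6 h, and that of the mitotic genes -1.57 and -1.48; the highest early factor is EGR3, a fitted value for a gene with 0 fragments in si-control libraries at 0 h.

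Direct contrasts with the other knockdowns at 0 h share the si-CBX3 libraries with the comparison above, so their values are given side by side. Libraries of si-FOXA1, like those of si-CBX3, were counted with 1 thread, and those of si-BRG1 with 8. Against si-FOXA1, 5760 genes (30.6%) were higher and 6424 (34.2%) lower in si-CBX3 cells, and against si-BRG1, 4128 (22.0%) and 3794 (20.2%). Mitotic genes were lower in si-CBX3 cells for 32 of 38 against si-FOXA1 and for 38 of 38 against si-BRG1. CDC20 had 8.39 and 9.57 CPM in si-CBX3 cells, against 21.7 and 19.9 CPM in si-FOXA1 and 57.6 and 54.0 CPM in si-BRG1 cells. FOS had 13.8 and 15.1 CPM in si-CBX3 cells, against 1.56 and 1.29 CPM in si-FOXA1 (3.34 on the log2 scale) and 0.657 and 0.684 CPM in si-BRG1 cells (4.43). The AP-1 list as a whole had 4 higher and 5 lower of 11 against si-FOXA1 (median -0.24), and 7 higher and 1 lower against si-BRG1. CCN2 was lower than in si-FOXA1 cells, which had 12.4 and 12.3 CPM (-1.24), and higher than in si-BRG1 cells (5.60). Early factors were higher in 17 and lower in 10 of 29 cases against si-FOXA1, and higher in 23 against si-BRG1. Interferon-stimulated genes were higher in 28 and lower in 2 of 39 cases against si-FOXA1, and higher in 6 and lower in 4 against si-BRG1. For cholesterol synthesis, 23 of 24 genes were higher than in si-FOXA1 cells. Of the largest rises, PADI2 had 116 and 115 CPM in si-FOXA1 cells and was not called against them (0.09). RRBP1 (-0.53), SLC23A1 (-0.16) and EVPL (-0.10) were not called against si-FOXA1 either, nor were SMARCA4 (-0.04) and EHMT1 (-0.02). Against si-BRG1, counted with 8 threads like si-control, PADI2 (2.22), RRBP1 (1.68), SLC23A1 (1.03), EVPL (1.2) and EHMT1 (0.56) were higher. PADI2 had 25.8 and 27.2 CPM in si-BRG1 cells. What the counting runs contribute to these rises was not tested. ANKRD35 (1.07), FOXP4 (0.95) and FOXJ1 (3.79) were higher than in si-FOXA1 cells, and BCAN (-5.75) and LTBP2 (-0.99) were lower.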

How the data were processed

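The authors deposited raw counts, 1 file per library, made by counting fragments per gene with featureCounts 1.4.6-p2, strand-specific, on GENCODE v19 gene models (hg19), per the file headers. The submitters' processing notes also name Trimmomatic and STAR, with no release for either. From the counts of 16 siRNA libraries, genes passing edgeR's filterByExpr were fitted with 8 groups by TMM and edgeR's quasi-likelihood test (R 4.3.3, edgeR 4.0.16, limma 3.58.1), two-sided, with Benjamini-Hochberg adjustment over 18806 genes. The steps were tested on simulated data. Alternatives were DESeq2 1.42.0, its size factors, no filter, these 2 groups alone, a replicate block and leaving out each library. Members and gene lists were chosen with earlier results of these data known. Named genes were 8 fixed genes (CBX3, CBX1, CBX5, SMARCA4, FOXA1, H1-2, PGR, ESR1), the 15 largest rises and falls among called, non-overlapping genes whose mean log-CPM reached 3, up to 6 members per list by lowest p, up to 4 per family, and genes within 1000 kb of CBX3; others are said to be chosen after their values were seen. Symbols and promoters came from RefSeq (GRCh38.p14), and 68.4% of the 57820 genes had a symbol. The libraries without an siRNA and the BRG1 ChIP-seq were not used here. Some genes that the naming rule picks are not reported here.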

Additional observations from a re-analysis of the deposited data

Results flagged for a closer look

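Among 248 genes named by the rule or near CBX3, 62 had an effect of the knockdown that differed between 6 h of R5020 and 0 h in edgeR's test of the interaction, and what flagged each was that test. Over all genes tested, the effect was higher at 6 h for 4.63% and lower for 4.36%. Most of the 248 were chosen by their 0 h values, which also enter the interaction, so the 62 cannot be set against those shares. Values are given for 59 of the 62, as the effect at 6 h minus that at 0 h, in log2, with 2 libraries per group.
Among AP-1 and other early factors it was lower at 6 h for all that were flagged, at -4.75 for FOS, -3.60 for FOSB, -1.85 for JUN, -2.52 for MAFF, -0.90 for ATF3, -3.05 for EGR1, -1.82 for HES1, -1.53 for KLF6, -1.42 for NR4A1, -1.35 for IER2 and -1.19 for MYC. Among kinase feedback, EGF family, Hippo and NF-kB target genes it differed for CCN2 (-4.82), CCN1 (-2.06), AMOTL2 (-1.22), CRIM1 (0.41), DUSP6 (-2.47), DUSP1 (-2.16), ERRFI1 (-1.33), PHLDA1 (-1.01), DUSP10 (-0.85), DUSP4 (-0.35), ERBB3 (-0.37), TGFA (0.54), ICAM1 (-0.93), TNIP1 (-0.33) and NFKBIA (0.39). Among cell cycle and p53 genes it differed for CDC20 (0.62), KIF20A (0.60), PTTG1 (0.58), CDC6 (0.45), CDKN1A (0.50), TP53INP1 (0.88), MDM2 (0.71), XPC (-0.46) and TNFRSF10B (0.43). Among HP1, chromatin and histone genes it differed for CBX3 (-0.99), CBX5 (0.53), LBR (0.80), EHMT1 (-0.48), SMARCD1 (-0.33), H1-4 (-2.05) and H2BC26 (-0.91). Among metabolic, hormone and epithelial genes it differed for KCNK5 (1.61), STC2 (1.04), FKBP5 (-1.23), SPDEF (-0.56), ITGA6 (-0.42), TRIM29 (-0.52), BMPR1B (-1.01), SLC7A11 (1.21), EGLN3 (0.88), ELOVL5 (0.57), PFKP (-0.55) and CA12 (-0.41). The others were ANKRD35 (-1.11), OSBPL5 (-0.45), GBP1 (1.09), ENSG00000256618 (0.56) and MTCO1P40 (0.49). DUSP1, ERRFI1, AMOTL2 and H1-4 were called higher at 0 h and lower at 6 h, and SLC7A11 was called lower at 0 h and higher at 6 h.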

How the results depend on the processing

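The counts of genes called for the 4 comparisons stayed within 1.5 times under every alternative run. At 0 h against si-control, 4863 genes were higher and 5320 lower with DESeq2's size factors, 4558 and 5104 with DESeq2, 4894 and 5210 without the filter on low counts, and 4911 and 5070 from these 2 groups alone. Leaving out 1 library gave 8474 to 9111 calls, against 10177 with all. Of the named genes' values 48 no longer passed the threshold and 4 newly passed it, and no gene changed sign. Of the counts by list 30 moved by more than 1.5 times, all from counts of 4 or fewer. Most of the lost calls were of genes at low levels, such as HOXA7 and DCN. The replicate numbers showed no pairing of the libraries: the deviations of same-numbered si-CBX3 and si-control libraries correlated at -0.166 over 9793 genes. Resting on 1 deviation per group, this check cannot exclude that libraries were paired. With the replicate number as a block 5210 genes were higher and 4823 lower (10033 calls), and with crossed numbers, an alternative chosen after seeing the data, 5224 and 4830 (10054 calls). With 2 libraries per group and p-values from 8 residual degrees of freedom, genes with few fragments have wide errors. Those degrees of freedom pool the 8 groups, whose replicates agreed unequally. The chi-square per degree of freedom between the raw counts of 2 replicates was 28.0 for si-control and 10.2 for si-CBX3 at 0 h. Over the groups it ran from 4.22 for si-FOXA1 at 0 h to 57.1 for si-BRG1 at 6 h.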
